A study of Homo sapiens with 12 samples.

Results

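Small nucleolar RNA host genes are transcribed as long RNAs whose introns carry small nucleolar RNAs (snoRNAs), the guides for chemical modification and processing of ribosomal RNA. The 10 members examined, SNHG1, SNHG3, SNHG5, SNHG6, SNHG7, SNHG8, SNHG12, SNHG15, SNHG16 and GAS5, make up 10 of the 17013 genes in the expression table. The question was whether their spliced transcripts changed with doxorubicin, and whether knock-down of the kinase MLK4 altered their levels. SNHG16 fell with doxorubicin in control and in MLK4-depleted cells, to 37.6% and 42.2% of the vehicle mean, and SNHG7 fell to 34.2% in control cells. In MLK4-depleted cells SNHG7 was at 51% of the vehicle mean, with a limma adjusted p of 0.0103 against the limit of 0.01 for a call. SNHG1 was 139% of the vehicle mean in MLK4-depleted cells, with an adjusted p of 0.00516 but a log2 fold change of 0.46, below the limit used for a call. No member was called in either knock-down comparison.

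After splicing, the introns are trimmed to mature snoRNAs and the exons are joined into a polyadenylated RNA. Many of these spliced RNAs hold only short open reading frames and are degraded in the cytoplasm during translation by nonsense-mediated decay (NMD), so that their level reflects transcription and decay together. Several begin with a run of pyrimidines of the kind found in mRNAs of the translation machinery. GAS5 was named for its accumulation in growth-arrested cells, and SNHG1, SNHG7, SNHG12, SNHG15 and SNHG16 have often been studied as long non-coding RNAs raised in tumours.

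All libraries came from HCC1806, an established human triple-negative breast cancer line, profiled by mRNA sequencing. Cells carried a non-targeting siRNA (siNT) or siRNA against MLK4 (siMLK4), and received DMSO (vehicle) or 1 μM doxorubicin, a topoisomerase II poison, for 24 h, with 3 libraries in each of the 4 groups. The controls are labelled DMSO and described in the study as vehicle-treated, although their titles read t0 and its methods call those cells untreated, and vehicle here means the libraries with the DMSO label. The study's methods describe triplicate transfections and do not say whether these were done on separate days or passages, so p-values measure the spread between these transfected samples of 1 line. The design holds 1 cell line, 1 dose and 1 time point, and siRNA depletion is partial. Between 16759025 and 19302248 reads per library were counted on genes, of which the 10 members took between 0.0541% and 0.105%.

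The siRNA target MAP3K21, the gene that encodes MLK4, had 553, 670 and 674 normalized reads in siNT cells with vehicle and 103, 94.7 and 88.6 in siMLK4 cells with vehicle. With doxorubicin it had 758, 856 and 772 normalized reads in siNT cells and 113, 138 and 94.3 in siMLK4 cells. Every siMLK4 library was below every siNT library, with log2 fold changes of -2.24 and -2.37 (SE 0.12 each). The basal keratin KRT5 lay between 5954 and 33620 normalized reads, and the progesterone receptor gene PGR was at 0 in the vehicle libraries and between 7.26 and 18.5 with doxorubicin. The estrogen receptor gene ESR1 lay between 36.0 and 149 and ERBB2 between 1272 and 2027. Of 8 markers of blood, endothelial and stromal cells, 5 had a row, and CD3E, CD68 and PECAM1 had none.

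The sequences around the transcription starts and of snoRNAs carried by SNHG16, SNHG7 and SNHG12 are given here as examples of how these genes begin and what their introns carry. RefSeq start sites on GRCh38.p14 were matched for 8 members, all but SNHG6 and SNHG15, and 5 are shown from 30 bases before the start. Capitals mark the longest run of C and T that opens with C within 20 bases of the start, on the transcribed strand. SNHG16 and SNHG7 are the members called lower with doxorubicin (SNHG7 in siNT cells), SNHG1 is the member with the highest fold change, and SNHG5 and SNHG12 have a run at the start site.
SNHG16, chr17:76557734-76557793, plus strand: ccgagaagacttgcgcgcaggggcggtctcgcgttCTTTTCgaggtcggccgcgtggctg
SNHG7, chr9:136728155-136728214, minus strand: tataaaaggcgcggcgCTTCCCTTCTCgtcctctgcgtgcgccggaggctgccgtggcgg
SNHG1, chr11:62855856-62855915, minus strand: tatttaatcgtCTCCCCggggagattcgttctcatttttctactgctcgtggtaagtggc
SNHG5, chr6:85678704-85678763, minus strand: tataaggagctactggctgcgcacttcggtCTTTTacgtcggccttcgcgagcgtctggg
SNHG12, chr1:28581844-28581903, minus strand: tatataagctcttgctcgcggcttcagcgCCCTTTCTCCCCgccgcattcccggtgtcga

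A run of at least 5 such bases was present in 7 of the 8 member promoters, against 51.0% of the 35116 RefSeq promoters of the same length. Among other snoRNA hosts it was in 73.7% of 19 noncoding and 68.6% of 35 protein-coding promoters, so nothing particular to the members is read from it. The exception was GAS5, whose longest run at the RefSeq start had 3 bases. That start, at 173869045 on the minus strand, lies outside the GENCODE span of GAS5, from 173858559 to 173868882. The sequence at the GENCODE start was not examined, so a longer run there is not excluded. SNHG16, which fell in both siRNA groups, and SNHG1, with the highest fold changes, each had a run of 6 bases. The longest run, 12 bases, was in SNHG12, which was not called. The palindrome CACGTG, the core site bound by MYC and related factors, was in the 300-base window of SNHG7 and of no other member matched, and in 7.26% of all promoters and 14.3% of those of the protein-coding hosts. These matches describe letters in the window and not binding.

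RefSeq places 36 snoRNAs within the annotated spans of the members, with 11 in GAS5 and 9 in SNHG1, 4 in SNHG12 and 3 in SNHG16. SNHG3, SNHG5 and SNHG7 hold 2 each, and SNHG6, SNHG8 and SNHG15 hold 1. The snoRNAs of SNHG16 are of the C/D class, which guides 2′-O-methylation, and those of SNHG7 are of the H/ACA class, which guides pseudouridylation. In the GENCODE sequences that follow, capitals mark each CTGA and TGATGA (the letters of boxes D and C, whether or not they act as boxes) in the C/D snoRNAs, and the last ACA in the H/ACA snoRNAs.
SNORD1A in SNHG16, chr17:76561634-76561705, plus strand: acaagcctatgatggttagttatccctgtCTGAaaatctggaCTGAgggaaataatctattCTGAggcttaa
SNORD1B in SNHG16, chr17:76561109-76561192, plus strand: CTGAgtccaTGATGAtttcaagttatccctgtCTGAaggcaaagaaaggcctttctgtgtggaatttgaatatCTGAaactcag
SNORD1C in SNHG16, chr17:76558791-76558868, plus strand: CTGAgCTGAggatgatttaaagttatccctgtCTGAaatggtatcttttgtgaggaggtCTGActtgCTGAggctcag
SNORA17A in SNHG7, chr9:136726747-136726879, minus strand: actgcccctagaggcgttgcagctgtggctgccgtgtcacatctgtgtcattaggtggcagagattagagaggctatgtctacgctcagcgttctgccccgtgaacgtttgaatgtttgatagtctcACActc
SNORD99 in SNHG12, chr1:28578749-28578822, minus strand: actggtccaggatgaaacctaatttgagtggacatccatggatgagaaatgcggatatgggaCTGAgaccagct
SNORD1A, SNORD1B, SNORD1C and SNORA17A had no row in the table, so the snoRNAs carried by SNHG16 and SNHG7 were not measured and the values below are those of the host transcripts.

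The libraries varied along a gradient tied to transcript length, and the pair of vehicle libraries at its low end is called the pair that stood apart. In each library, the deviation of protein-coding genes from their mean was fitted against log2 transcript length over 10548 genes, which gives a length slope. It was -0.13 in siNT vehicle replicate 1 and -0.161 in siMLK4 vehicle replicate 3, against 0.111 in siNT vehicle replicate 3 and 0.123 in siMLK4 vehicle replicate 1, and between -0.0712 and 0.0765 in the doxorubicin libraries. All 10 members were above their group mean in siNT vehicle replicate 1, by 0.39 on average on the log2 scale, and all 10 in siMLK4 vehicle replicate 3, by 0.33. The members were not high in these libraries alone, since all 10 were above their group mean in siMLK4 doxorubicin replicate 3, by 0.23 on average, and 9 in siNT doxorubicin replicate 1, by 0.092. At the other end of the gradient, in siMLK4 vehicle replicate 1, the mean deviation was -0.32 and no member was above its group mean. The members varied together within groups, with a median correlation of 0.85 over their 45 pairs and 12 libraries, a description in which every point shares the same libraries. The deviation from the group mean followed the length slope with a correlation below -0.8 for 8 of the 10 members, against 16.4% of the 11057 genes with at least 100 normalized reads on average, the exceptions being SNHG1 (-0.47) and SNHG12 (-0.72). Whether RNA quality, library preparation or growth state gave this pattern was not tested. The main results on the members, and the doxorubicin counts of the other gene lists, are therefore also given without the pair that stood apart or with the length slope as a covariate. Leaving out the pair drops vehicle libraries in which all 10 members were above their group mean. By itself this raises the doxorubicin fold changes of the members, so lower values move towards 0.

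**Figure D1:**
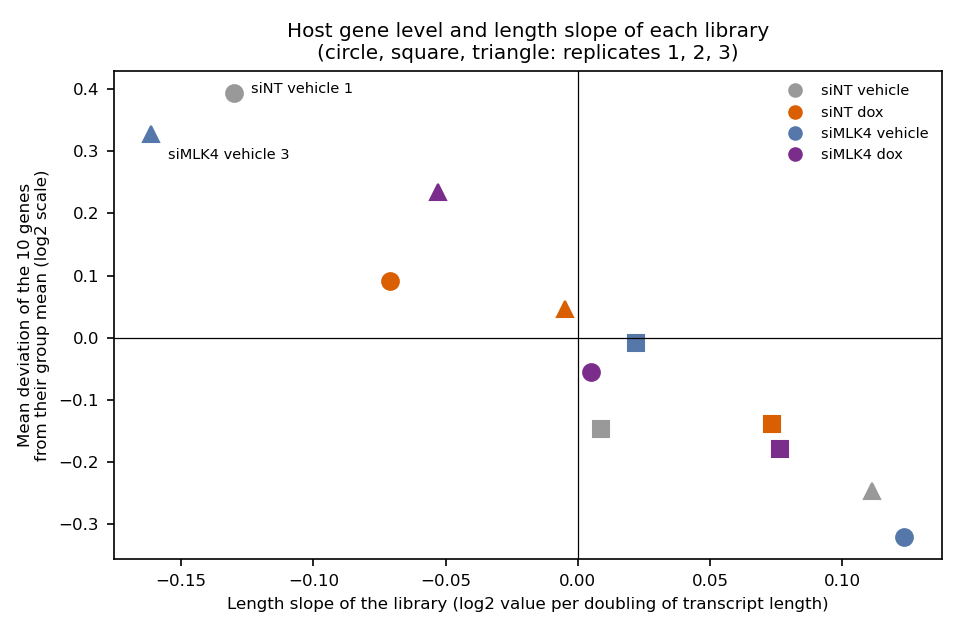
Mean deviation of the 10 genes from their group mean (y axis, log2 scale) against the length slope of each library (x axis, log2 value per doubling of transcript length), one point per library, coloured by group with the marker giving the replicate. siNT vehicle replicate 1 and siMLK4 vehicle replicate 3 sit at the top left, at 0.39 and 0.33, and the mean deviation is lowest, at -0.32, in siMLK4 vehicle replicate 1, which has the highest slope.

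The first comparison asked how the host genes differed between doxorubicin and vehicle in cells with non-targeting siRNA. SNHG16 had 4405, 3594 and 3668 normalized reads with vehicle and 1472, 1336 and 1580 with doxorubicin. All vehicle libraries lay far above all doxorubicin libraries. The mean went from 3889 ± 448 to 1462 ± 122 (SD, n = 3), a log2 fold change of -1.38 (SE 0.12, limma adjusted p = 7.42e-07). It was -1.28 without the pair of libraries that stood apart (adjusted p = 6.21e-07) and -1.37 with the length slope as a covariate. In libraries of a whole culture, fewer cells of a kind and less RNA per cell cannot be told apart. SNHG16, on chromosome 17 from 76557727 to 76670985 in GENCODE on GRCh38, is a long non-coding RNA gene, raised in several tumour types in the literature of the field.

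SNHG7 had 1608, 944 and 848 normalized reads with vehicle and 451, 353 and 360 with doxorubicin in siNT cells. The groups did not overlap, although the vehicle libraries ranged widely and the highest was the library that stood apart. The log2 fold change was -1.38 (SE 0.24, limma adjusted p = 0.000275), and -1.11 (SE 0.14, adjusted p = 1.59e-05) without the pair of libraries that stood apart. SNHG7 lies on chromosome 9 from 136721366 to 136728184. Its exons share 1482 bases with DIPK1B on the opposite strand, and DIPK1B fell as well, from between 159 and 231 normalized reads to between 3.05 and 12.9. The authors counted reads by strand, which assigns the reads of the overlap to one gene or the other.

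SNHG16 and SNHG7 were the members called here, by an adjusted p under 0.01 with a log2 fold change beyond 0.75 in size, and both were lower. Across the table, 10.6% of genes were called lower and 12.1% higher in the same comparison, and 2 of 10 members lower is near that background, so nothing about the list is read from the count. At an adjusted p under 0.05 with no fold limit, 4 members were lower and none higher, against 27.7% of genes lower and 29.6% higher. The members added were SNHG6 and SNHG3. The median log2 fold change of the 10 was -0.38, beside 0.005 for all genes. That median depended on the vehicle libraries used. It was -0.47 without siNT vehicle replicate 2, -0.52 without replicate 3 and -0.37 with the length slope as a covariate. Without siNT vehicle replicate 1 it was -0.11. In that last fit SNHG16 and SNHG7 were the members lower at an adjusted p under 0.05, where 26.4% of genes were, and SNHG1 was higher. In the fit of these groups with a replicate block, whose equally numbered libraries deviated together, 6 members were lower, SNHG8 and SNHG15 being added, and SNHG1 was higher at an adjusted p under 0.05, and the calls were the same. In that fit 31.2% of all genes were lower and 32.1% higher at this limit. Scaled to library totals, SNHG16 and SNHG7 were lower and SNHG1 higher at that limit, where 18.2% of genes were lower and 39.5% higher, and SNHG3 and SNHG6 did not pass. The median of the members was then -0.15, beside 0.18 for all genes. With upper quartile scaling it was -0.23, beside 0.12.

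SNHG6, a host gene on chromosome 8, had 2008, 1372 and 1273 normalized reads with vehicle and 1075, 747 and 979 with doxorubicin. All vehicle libraries were above all doxorubicin libraries, and the log2 fold change was -0.69 (SE 0.22, limma adjusted p = 0.0142). SNHG3, which lies inside the RCC1 gene on the same strand of chromosome 1 from 28505980 to 28510892, had 807, 569 and 583 normalized reads and then 484, 429 and 478, with a log2 fold change of -0.44 (SE 0.15, limma adjusted p = 0.024). Without the pair of libraries that stood apart, SNHG6 was at -0.49 (adjusted p = 0.00664) and SNHG3 at -0.29 (adjusted p = 0.0704), so that SNHG3 did not pass in that fit. Neither gene passed an adjusted p of 0.05 without siNT vehicle replicate 1 alone (0.0664 for SNHG6 and 0.115 for SNHG3), without siNT doxorubicin replicate 2 (0.0709 and 0.0824), with upper quartile scaling (0.056 and 0.127) or with library totals (0.0729 and 0.214). RCC1, a nuclear exchange factor for the GTPase Ran whose exons share 242 bases with SNHG3, fell by 1.45 on the log2 scale. Both genes lie on the same strand, so counting by strand does not separate the reads of the shared bases.

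SNHG1 had 2220, 1806 and 2086 normalized reads with vehicle and 2451, 2203 and 2717 with doxorubicin. The groups overlapped in 1 library, and the log2 fold change was 0.26 (SE 0.12, limma adjusted p = 0.0766). SNHG1 passed an adjusted p of 0.05 without the pair of libraries that stood apart (0.33, adjusted p = 0.0383), without siNT vehicle replicate 1 alone (0.0494), with the length slope as a covariate (0.0231), with library totals (0.00206), with upper quartile scaling (0.0112) and with the replicate block (0.0467). SNHG12 had 538, 506 and 349 and then 544, 426 and 516 normalized reads, with 0.10 (SE 0.16). SNHG5 and SNHG8 had their highest values by far in siNT vehicle replicate 1, at 1244 and 2143 normalized reads, and their other vehicle libraries, at 683 and 659 and at 991 and 956, lay within or next to the doxorubicin ranges of 731 to 825 and 891 to 1051. Their log2 fold changes of -0.10 and -0.34 turned to 0.18 and 0.02 without the pair of libraries that stood apart. GAS5 went from 4426 ± 1060 to 3668 ± 296 normalized reads (SD, n = 3) and SNHG15 from 679 ± 250 to 481 ± 52.7, and neither passed the test.

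**Figure D2:**
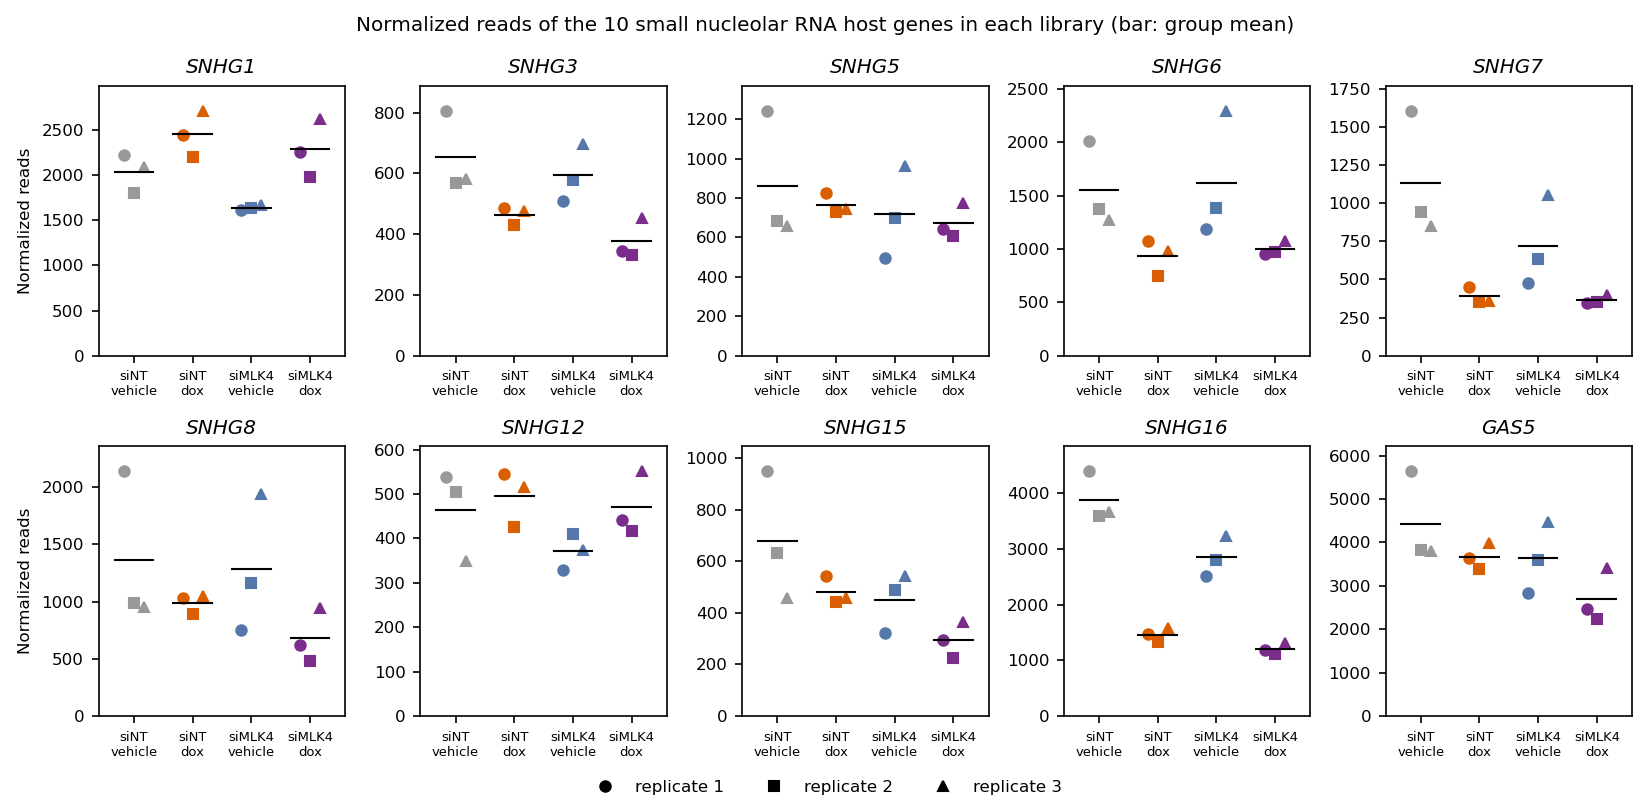
Normalized reads (y axis, from 0) of each of the 10 genes in every library, by group on the x axis, with markers for the replicate numbers and a bar at the group mean. SNHG16 and SNHG7 are lower with doxorubicin in both siRNA groups, while the vehicle libraries of SNHG5, SNHG8 and SNHG15 are spread over a wider range than their doxorubicin libraries.

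In MLK4-depleted cells the same comparison was made against siMLK4 vehicle libraries. SNHG16 had 2520, 2810 and 3241 normalized reads with vehicle and 1191, 1107 and 1318 with doxorubicin. The groups were again far apart, and the log2 fold change was -1.21 (SE 0.12, limma adjusted p = 2.37e-06). It was -1.11 without the pair of libraries that stood apart and -1.19 with the length slope as a covariate. SNHG16 was the member called, 1 of 10 lower, where 10.6% of all genes were called lower and 12.6% higher.

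SNHG7 had 474, 632 and 1054 normalized reads with vehicle and 343, 351 and 400 with doxorubicin in siMLK4 cells. The groups did not overlap, but the lowest vehicle library was close to the highest doxorubicin library. The log2 fold change of -0.82 (SE 0.24) passed the fold limit and had a limma adjusted p of 0.0103, just over the 0.01 limit. It was -0.53, inside the fold limit, without the pair of libraries that stood apart (adjusted p = 0.0046) and without siMLK4 vehicle replicate 3 alone (adjusted p = 0.0472), -1.07 without siMLK4 vehicle replicate 1 (adjusted p = 0.00195) and -0.77 with the length slope as a covariate (adjusted p = 7.78e-06). In the main limma fit the difference from the siNT response was 0.56 on the log2 scale (SE 0.35, adjusted p = 0.51), so the loss of the call in siMLK4 cells is not by itself a difference between the cells. With the length slope as a covariate the difference was 0.60 (SE 0.14, adjusted p = 0.0197) and passed 0.05, so the fits differ on this point.

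At an adjusted p under 0.05, 5 members were lower and 1 higher in siMLK4 cells, against 27.7% of genes lower and 30.2% higher. The median of the 10 was -0.56, beside 0.02 for all genes. Without siMLK4 vehicle replicate 3 it was -0.37 with 3 members lower at that limit (SNHG3, SNHG7 and SNHG16), where 27.0% of genes were, and without siMLK4 vehicle replicate 1 it was -0.71 with 7 members lower, where 25.5% of genes were. With library totals the median of the members was -0.39, beside 0.16 for all genes. In that fit SNHG3, SNHG7 and SNHG16 were lower and SNHG1 and SNHG12 higher at that limit, where 10023 of 17013 genes passed in either direction. SNHG3 had 508, 577 and 695 normalized reads with vehicle and 343, 333 and 455 with doxorubicin, with a log2 fold change of -0.59 (SE 0.15, limma adjusted p = 0.00423). SNHG6 had 1186, 1380 and 2298 and then 951, 967 and 1074 normalized reads, with -0.62 (SE 0.22, limma adjusted p = 0.0244). SNHG6 was at -0.35 without siMLK4 vehicle replicate 3 (adjusted p = 0.118), and did not pass an adjusted p of 0.05 without siMLK4 doxorubicin replicate 1 (0.069) or 2 (0.0634) or with library totals (0.0816). In both SNHG3 and SNHG6 the lowest vehicle library was above the highest doxorubicin library. SNHG8, host of a single H/ACA snoRNA, had 750, 1159 and 1943 normalized reads with vehicle and 623, 483 and 944 with doxorubicin, and its groups overlapped (-0.81, SE 0.33, limma adjusted p = 0.0453, and -0.47 with adjusted p = 0.071 without the libraries that stood apart). SNHG8 also missed an adjusted p of 0.05 with the filter of at least 10 reads (0.0536), with library totals (0.0964), with upper quartile scaling (0.0677) and without any 1 of siMLK4 doxorubicin replicates 1 and 2, siMLK4 vehicle replicates 2 and 3 and the 3 siNT doxorubicin libraries (0.0548 to 0.205).

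SNHG1 was the member that was higher. It had 1614, 1640 and 1666 normalized reads with vehicle and 2256, 1980 and 2623 with doxorubicin in siMLK4 cells. Every doxorubicin library was above every vehicle library, and the vehicle libraries lay close together. The log2 fold change was 0.46 (SE 0.12, limma adjusted p = 0.00516), and 0.47 both without the pair of libraries that stood apart and with the length slope as a covariate. SNHG1 lies on chromosome 11 from 62851978 to 62855953. Its start is 51 bases from that of SLC3A2, the heavy chain of an amino acid transporter, on the opposite strand, and SLC3A2 fell in siNT cells, from 15760, 9841 and 10490 to 7339, 6611 and 6562 normalized reads (-0.78, SE 0.18, limma adjusted p = 0.00196). In siMLK4 cells SLC3A2 had a log2 fold change of -0.44 (SE 0.18, limma adjusted p = 0.0475). The transcripts that leave this shared promoter region in opposite directions thus had fold changes of opposite sign. SNHG1 was called in neither siRNA group, however, and SLC3A2 in siNT cells only. SLC3A2 was also highest in the pair of libraries that stood apart, at 15760 and 12690 normalized reads.

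SNHG12 had 329, 411 and 373 normalized reads with vehicle and 441, 417 and 553 with doxorubicin in siMLK4 cells, groups that did not overlap, with a log2 fold change of 0.30 (SE 0.16, limma adjusted p = 0.111). GAS5 and SNHG15 were at -0.42 and -0.52 with adjusted p of 0.0753 and 0.0624 by limma, and SNHG5 was at -0.05. With the length slope of each library as a covariate, the median standard error of the members went from 0.20 to 0.10. In that fit 7 members were lower and SNHG1 higher at an adjusted p under 0.05 in siNT cells, and 7 were lower and SNHG1 and SNHG12 higher in siMLK4 cells. Most genes passed in the same fit, with 34.2% lower and 34.4% higher in siNT cells and 33.3% lower and 35.0% higher in siMLK4 cells, so the counts of members are to be read against these shares. The 7 were SNHG3, SNHG6, SNHG7, SNHG8, SNHG15, SNHG16 and GAS5 in both, and the covariate was added after the values had been seen.

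**Figure D3:**
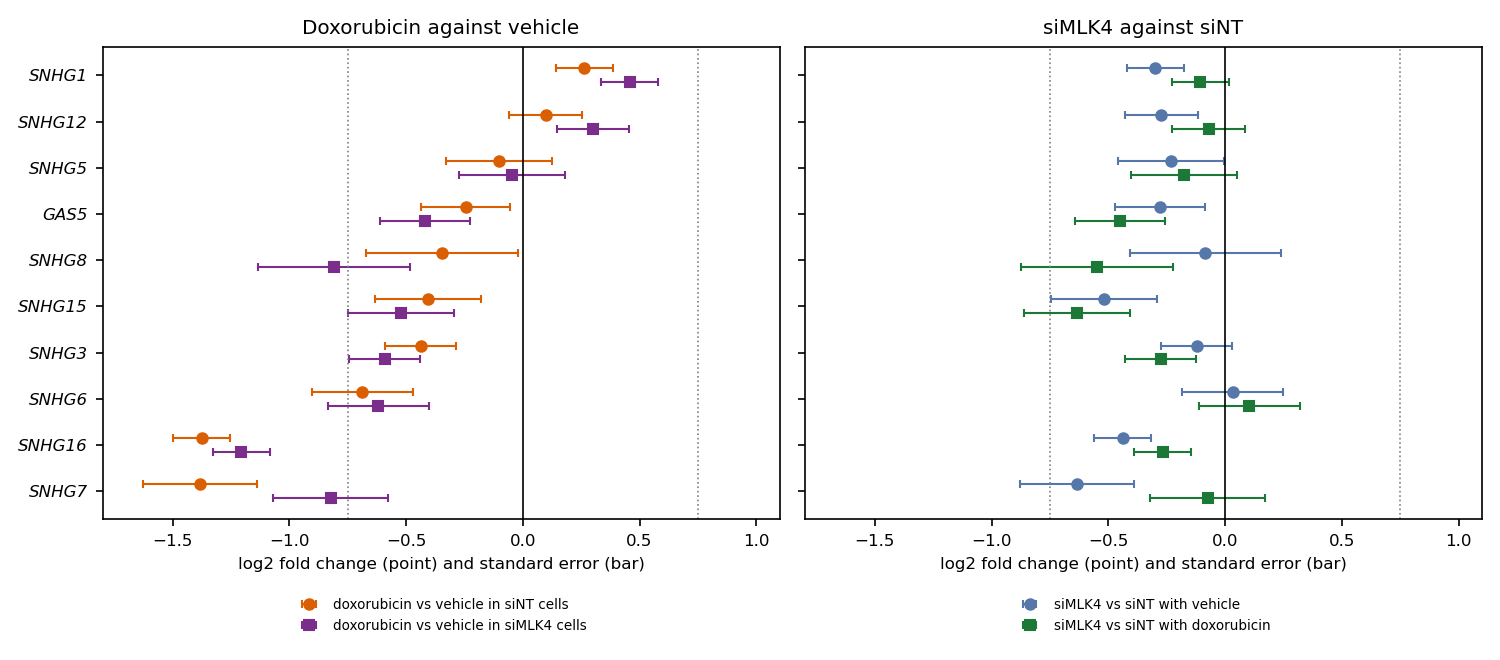
Log2 fold change (x axis) of each gene (y axis) with its standard error as a bar, for doxorubicin against vehicle in siNT and siMLK4 cells on the left and for the knock-down comparisons on the right (circles with vehicle, squares with doxorubicin), with dotted lines at the fold limit of 0.75. On the left SNHG16 and SNHG7 lie beyond the limit in both comparisons and SNHG8 in siMLK4 cells, and SNHG1 and SNHG12 lie above 0. On the right no point passes the limit, and 9 of the 10 members lie below 0 in each comparison, SNHG6 being the exception.

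The knock-down comparisons asked whether MLK4 depletion altered the host genes at a fixed treatment. They use the same 12 libraries as the comparisons above. With vehicle, no member was called, where 3.14% of genes were called lower and 2.51% higher. The median log2 fold change of the 10 was -0.28, beside 0.012 for all genes, a description of members that varied together within groups. SNHG16 was the member with an adjusted p under 0.05, at 3889 ± 448 normalized reads in siNT and 2857 ± 363 in siMLK4 libraries (SD, n = 3), with no overlap and a log2 fold change of -0.44 (SE 0.12, limma adjusted p = 0.0166). At that limit 13.0% of genes were lower and 12.7% higher. SNHG16 did not pass it with library totals (adjusted p = 0.0662), with upper quartile scaling (0.067) or in the limma fit of the 2 groups alone (0.0658), nor without siNT vehicle replicate 1 (0.0649), siMLK4 vehicle replicate 1 (0.0704) or siMLK4 vehicle replicate 2 (0.0506). Without siNT vehicle replicate 3 there were 4 members lower at that limit, with SNHG7, SNHG12 and SNHG15 added, where 11.5% of genes were. With the length slope as a covariate there were 5, namely GAS5, SNHG1, SNHG7, SNHG15 and SNHG16, where 20.7% of genes were lower. SNHG7 had 63.5% of the siNT mean (-0.63, SE 0.24, limma adjusted p = 0.0715), with overlapping groups. It was at -0.66 with an adjusted p of 0.00793 without the pair of libraries that stood apart, but at -0.36 (0.272) without siNT vehicle replicate 1 alone, -0.39 (0.267) without siMLK4 vehicle replicate 1 and -0.93 (0.00701) without siMLK4 vehicle replicate 3. All values of SNHG1 were lower in siMLK4 than in siNT vehicle libraries (-0.30, SE 0.12, limma adjusted p = 0.0854).

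With doxorubicin, no member was called and none had an adjusted p under 0.05, where 2.93% of genes were called lower and 2.66% higher, and 12.1% were lower and 12.7% higher at an adjusted p under 0.05. The median of the 10 was -0.22, beside 0.023 for all genes, again as a description. SNHG16 had 1472, 1336 and 1580 normalized reads in siNT and 1191, 1107 and 1318 in siMLK4 libraries, groups that did not overlap. SNHG15 had 541, 443 and 458 normalized reads in siNT and 296, 225 and 366 in siMLK4 libraries. These groups did not overlap, and the log2 fold change was -0.63 (SE 0.23, limma adjusted p = 0.056). GAS5 had 3631, 3393 and 3980 and then 2473, 2235 and 3409 normalized reads, with 1 siMLK4 library inside the siNT range (-0.45, SE 0.19, limma adjusted p = 0.102). Libraries with equal replicate numbers deviated together in this comparison. In the fit of these groups with a replicate block 5 members were lower at an adjusted p under 0.05, namely GAS5, SNHG3, SNHG8, SNHG15 and SNHG16, where 22.9% of all genes were lower at that limit, and none passed the fold limit. Without the pair of libraries that stood apart, GAS5, SNHG8, SNHG15 and SNHG16 were lower at that limit, where 15.7% of all genes were, and with the length slope as a covariate SNHG3 was added, where 19.5% of all genes were. In the limma fit of these groups without a block, GAS5 (adjusted p = 0.0326), SNHG8 and SNHG15 (0.00907) were lower, where 5082 of 17013 genes passed in either direction. SNHG15 also passed without some single libraries (0.0223 to 0.0439), and GAS5 without siMLK4 doxorubicin replicate 3 (0.033). The lower levels of SNHG15, SNHG16 and GAS5 thus depend on how the spread is estimated and on the libraries used. In the main fit they were between -0.27 and -0.63 on the log2 scale. SNHG16 was at -0.255 with the length slope covariate, and SNHG15 between -0.48 and -0.78 when 1 library was left out.

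The difference between the doxorubicin responses of siMLK4 and siNT cells was not called for any member and had no unadjusted p under 0.05 among the 10. Of all genes 0.176% were called with a lower and 0.0999% with a higher response in siMLK4 cells, and 0.623% and 0.576% passed an adjusted p of 0.05. The differences ranged from -0.47 for SNHG8 to 0.56 for SNHG7 on the log2 scale, with standard errors between 0.17 and 0.46. Leaving out 1 library moved that of SNHG8 between -0.83 and -0.13 and that of SNHG7 between 0.29 and 0.85. For SNHG7 the difference had an adjusted p of 0.51, of 0.179 without the pair of libraries that stood apart (0.58, SE 0.20) and of 0.0197 with the length slope as a covariate (0.60, SE 0.14), a fit in which 4.57% of all genes had a higher response in siMLK4 cells at an adjusted p under 0.05. No other member had an adjusted p under 0.05 for the difference in these 3 limma fits.

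Other genes that host snoRNAs were compared by list. The counts of called genes in this list and those that follow stand beside 10.6% of all genes called lower and 12.1% higher in siNT cells, and 10.6% lower and 12.6% higher in siMLK4 cells. Of 20 other noncoding hosts, 16 were measured, and 3 were called lower and 2 higher in siNT cells and 4 lower and 1 higher in siMLK4 cells, with medians of -0.20 and -0.33. SNHG4 fell from 446, 422 and 356 to 63.7, 73.3 and 85.2 normalized reads in siNT cells (-1.91, SE 0.12) and fell by 2.12 on the log2 scale in siMLK4 cells. DANCR, a long non-coding RNA first described as a block to differentiation, fell by 1.55 and 1.70, and SNHG17 by 1.09 and 0.76. SNHG30 rose from 133, 98.6 and 71.8 to 306, 271 and 262 normalized reads in siNT cells (1.16, SE 0.14) and by 1.01 on the log2 scale in siMLK4 cells. SNHG9 rose in siNT cells (0.82, SE 0.19), where it had at most 73.8 normalized reads. The noncoding hosts thus included genes called in opposite directions.

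The protein-coding snoRNA hosts include many genes of ribosomal proteins and nucleolar factors. Of 34 measured, 12 were called lower and 0 higher in siNT cells, and 13 lower and 0 higher in siMLK4 cells, with medians of -0.63 and -0.59. The other hosts of this list were not called, and 21 of the 34 were lower and 0 higher at an adjusted p under 0.05 in each comparison. At that limit 9745 of all 17013 genes passed in siNT cells and 9858 in siMLK4 cells, in either direction. RPL3, a protein of the large ribosomal subunit, fell by 1.87 and 1.88 on the log2 scale. RPL5, another large-subunit protein, fell by 1.15 and 1.54, and RCC1 by 1.45 in both. Of the 17 snoRNP proteins, which package snoRNAs, 3 were called lower and 0 higher in each doxorubicin comparison, with medians of -0.26 and -0.27. NHP2, a core H/ACA protein, had 1372, 1203 and 979 normalized reads with vehicle and 434, 344 and 462 with doxorubicin in siNT cells. ZNHIT6, an assembly factor for C/D snoRNPs, fell by 1.53 in siNT cells. NOLC1, a nucleolar phosphoprotein, was not called with doxorubicin, and was lower in siMLK4 than in siNT cells by 0.92 with vehicle and 1.01 with doxorubicin.

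**Figure D4:**
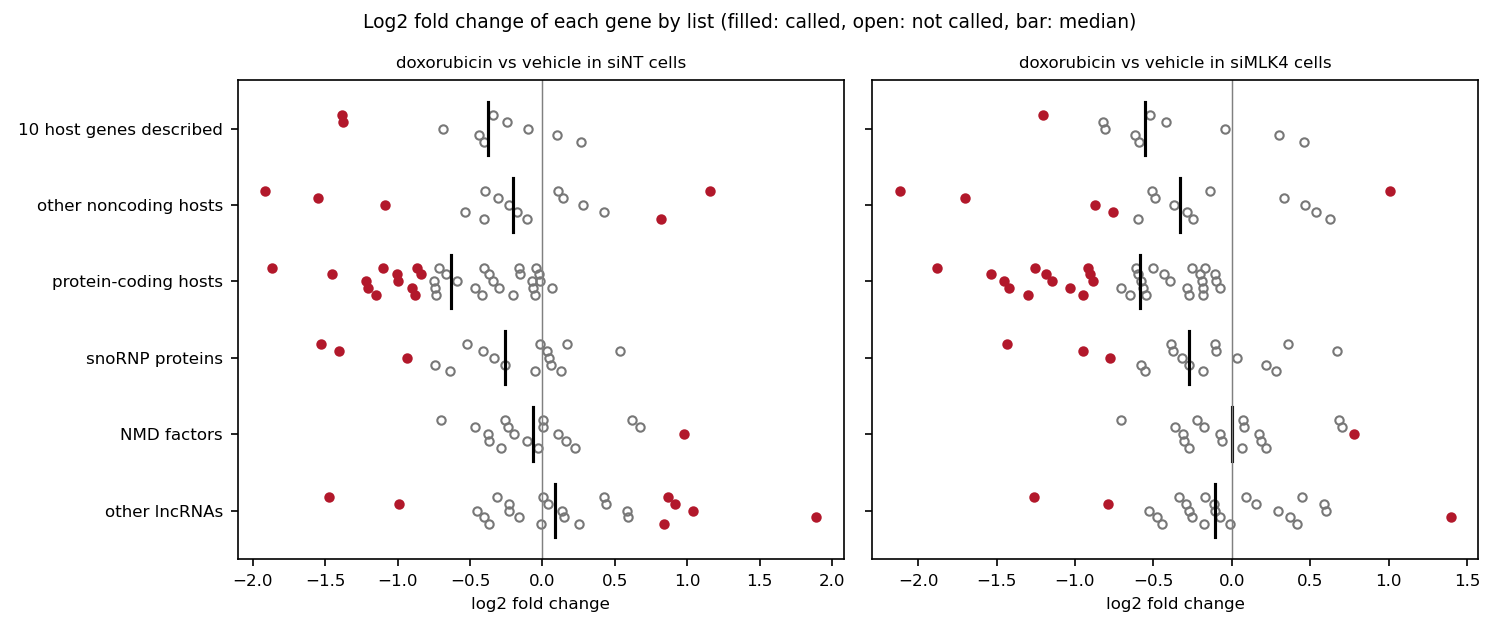
Log2 fold change with doxorubicin (x axis) of each gene of 6 lists (y axis) in siNT cells (left) and siMLK4 cells (right), with filled points called, open points not called and a bar at the median of the list. The protein-coding snoRNA hosts have medians of -0.63 and -0.59, the 10 host genes described of -0.38 and -0.56, and the NMD factors of -0.07 and 0.00.

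The decay pathway was examined through its factors and other targets. Of 18 NMD factors, 1 was called higher and 0 lower in each doxorubicin comparison, namely SMG8, a regulator of the NMD kinase, with 0.97 and 0.78 on the log2 scale. Of 6 coding targets of the pathway, 2 were called higher and 1 lower in siNT cells and 3 higher and 0 lower in siMLK4 cells. ATF3, a stress-induced transcription factor, rose by 2.16 and 3.02 on the log2 scale, and GADD45B, a growth arrest gene, by 1.13 and 1.33. ATF4, the main transcription factor of the integrated stress response, fell by 1.47 in siNT cells (SE 0.25). UPP1, a uridine phosphorylase, rose by 1.18 in siMLK4 cells, and was lower in siMLK4 than in siNT cells with vehicle (-1.38, SE 0.26), as was GADD45A (-1.15, SE 0.24). TBL2 was called in no comparison.

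Of 24 other long non-coding RNAs measured, 5 were called higher and 2 lower in siNT cells and 1 higher and 2 lower in siMLK4 cells, with medians of 0.08 and -0.11. HOTAIR rose by 1.89 and 1.39 on the log2 scale, KCNQ1OT1 by 1.04 and TUG1 by 0.91 in siNT cells. H19, an imprinted RNA, fell by 1.47 and 1.26, and DLEU2 by 0.99 and 0.79. UCA1 was lower in siMLK4 than in siNT cells with doxorubicin (-1.18, SE 0.23). Short-lived mRNAs, whose level follows transcription closely, were called higher for 7 and lower for 2 of 22 in both doxorubicin comparisons. FOS, an immediate early gene, rose by 1.84 and 2.09, and ID2, an inhibitor of helix-loop-helix factors, by 2.95 and 1.73. FOSL1, EGR1 and MYC were lower in siMLK4 than in siNT cells with vehicle, with log2 fold changes of -2.12, -1.81 and -1.23. ID2, ID3 and BTG2 of the same list went the other way with vehicle, at 361%, 189% and 164% of the siNT mean, with groups that did not overlap. The median of the short-lived list was 0.12 in siNT and 0.35 in siMLK4 cells, of opposite sign to that of the 10 host genes.

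Marker genes moved with doxorubicin as well. Of 8 basal epithelial genes 5 were called lower in each doxorubicin comparison, with log2 fold changes of -1.24 and -2.20 for KRT5, -1.60 and -1.58 for TP63 and -1.26 and -1.47 for KRT14. The summed non-epithelial list went from 376, 322 and 345 normalized reads to 513, 480 and 416 with doxorubicin in siNT cells, and in siMLK4 cells to 608, 560 and 693 and then 632, 635 and 677. COL1A1, the most abundant gene of the list in each of the 12 libraries, lay between 254 and 577, and ACTA2 was between 8.97 and 30.3 with vehicle and between 102 and 230 with doxorubicin. The part of these shifts in the host gene values was not tested.

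Without the pair of libraries that stood apart, 10.9% of all genes were called lower and 12.5% higher with doxorubicin in siNT cells and 10.7% and 13.1% in siMLK4 cells. Of the other noncoding hosts 3 were then called lower and 2 higher in siNT cells, and 2 and 2 in siMLK4 cells, where SNHG17 and SNHG18 were no longer called lower and SNHG9 was called higher. Of the protein-coding hosts 10 and 11 were called lower and 0 higher, with medians of -0.53 and -0.50. The snoRNP proteins had 3 lower in each and PIH1D1 higher in siMLK4 cells. UPF3B, an NMD factor, was called higher in both, and SMG8 was not called in siMLK4 cells. Of the coding NMD targets 3 were called higher in each, with UPP1 added in siNT cells, and 1 lower in siNT cells. Of the other long non-coding RNAs 3 were called higher and 2 lower in siNT cells, where TUG1 was not called, and 1 and 2 in siMLK4 cells. The short-lived mRNAs had 7 and 8 higher and 2 lower in each, and the basal epithelial genes 5 lower in each.

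The snoRNA rows inside the members were close to the detection limit. Of the 16 snoRNA rows in the table, 2 lay inside a member. SNORA73B, in SNHG3, had between 11 and 17 reads per library in siNT vehicle and between 2 and 5 in siNT doxorubicin libraries, and between 7 and 10 and between 2 and 9 in the siMLK4 groups. SNORD99, in SNHG12, had between 6 and 12 and between 7 and 14 reads in siNT cells. Counts this low near the floor of 3 reads allow no statement on the mature snoRNAs, which are too short for a standard mRNA library. Of the other genes that start within 1000 bases of a member on the opposite strand, ENSG00000267546, 44 bases from SNHG16, had at most 21.2 normalized reads, and ZBTB37, 800 bases from GAS5, lay between 151 and 368 and was not called.

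The genes whose values over the 12 libraries were most like the mean of the members were UPF3A (r = 0.99), MRPL1 (0.99), SQOR (0.98), RCN1 (0.98) and RAC1 (0.98), all protein-coding. UPF3A, itself a factor of the NMD pathway, had 3822, 2930 and 2780 normalized reads in siNT cells with vehicle and 2776, 2371 and 2722 with doxorubicin. Its siMLK4 libraries had 2392, 2630 and 3309 and then 2137, 2064 and 2450. Among the vehicle libraries of each siRNA it was highest in the one that stood apart. None of these 5 genes was called in a doxorubicin comparison. The likeness is a description over libraries that share their groups and their length slopes.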

How the data were processed

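mRNA sequencing of HCC1806 cells gave 12 libraries in 4 groups. The authors trimmed reads with Trimmomatic, aligned them with HISAT2, removed optical duplicates and counted reads per gene by strand; the submitters' processing notes give Trimmomatic 0.39, HTSeq 0.6.0 and DESeq2 1.26.0. Their methods name GRCh38 and the submitters' processing notes hg19, so positions given are those of GENCODE 44 and RefSeq, not of the alignment. The deposited values are log2 variance-stabilised expression made by the authors, 1 column per library for 17013 genes. They rise from 4.76 at 0 reads. Inverting that transformation gave size factors from 0.8516 to 1.1993 and whole reads for 100% of values within 0.05 reads. Normalized reads in the report are these reads divided by the size factor.

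The members and gene lists were chosen with earlier results of these data known. limma 3.58.1 (R 4.3.3) was fitted to the log2 values with 4 group means over the 12 libraries, moderated with a mean-variance trend, and p-values were adjusted by Benjamini-Hochberg over 17013 genes. A fold change on this scale understates that of genes with few reads. A call needs an adjusted p under 0.01 and a log2 fold change beyond 0.75 in size. Alternatives were other scalings, a filter of at least 10 reads in every library, only the groups compared, a replicate block, limma-voom on the reads, log2(normalized reads + 1), no variance trend, other limits and leaving out each library. On data simulated for doxorubicin against vehicle in siNT cells, over 17013 genes, 83% of 2-fold and 100% of 3-fold changes were called. The simulated reads had the same dispersion for every gene and no length slope. Changed genes had a mean of at least 100 normalized reads, so these rates hold for that setting and not for the members. Named genes were all members, the siRNA target, up to 3 called genes per list and direction (every gene of lists of at most 6), snoRNA rows in members, divergent neighbours within 1000 bases and the 5 genes most like the member mean. The table held 16957 genes annotated in GENCODE.

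No pair of libraries within a group agreed within counting noise (chi-square per gene from 7.02 to 64.55). Equal replicate numbers deviated together over 13295 genes in siNT vehicle and doxorubicin (correlations 0.55, 0.12 and 0.23) and in siNT and siMLK4 doxorubicin (0.23, 0.6 and 0.58), but not in the other pairs of groups, and no label says what a number stands for.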

Additional observations from a re-analysis of the deposited data

How the results depend on the processing

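SNHG16 and SNHG7 with doxorubicin in siNT cells and SNHG16 in siMLK4 cells were called in every fit run. The length slope covariate, the fit without both libraries that stood apart and the block within 2 groups were chosen after seeing the data. With an adjusted p under 0.05 alone, the members called for doxorubicin were 4 in siNT and 6 in siMLK4 cells. The 4 were lower, and the 6 were 5 lower and 1 higher. For the knock-down with vehicle 1 member was called, and it was lower. Of all 17013 genes, 9745, 9858 and 4381 passed that limit in these comparisons, in either direction. In siMLK4 cells, 2 members were called (SNHG7 added) with the length slope covariate and on log2(normalized reads + 1). Leaving out single libraries gave 1 to 4 calls there: 2 without siNT vehicle replicate 1 or 3, and 4 without siMLK4 vehicle replicate 1, with SNHG6 and SNHG8 added, where 10.9% of all genes were called lower. It gave 0 to 1 for the knock-down with vehicle, SNHG7 being called without siMLK4 vehicle replicate 3. The replicate block changed no call of a member, with 2 and 1 for doxorubicin and 0 elsewhere.

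Scaling by library totals moved the median of all genes by 0.18 in siNT and 0.14 in siMLK4 cells for doxorubicin, and upper quartile scaling by 0.11 and 0.045, and the cause was not tested. In siNT cells 2060 genes were called higher and 1799 lower, against 2859 and 1094 with library totals and 2549 and 1313 with upper quartile scaling. Members not called turned sign in some fits. For doxorubicin, SNHG5 was at 0.12 and 0.13 with library totals, 0.039 and 0.008 with upper quartile scaling and 0.18 and 0.17 without the libraries that stood apart, where SNHG8 was at 0.021 in siNT cells. For the knock-down with vehicle, library totals gave 0.01 for SNHG3 and 0.052 for SNHG8, upper quartile scaling 0.012 for SNHG8, and the fit without the libraries that stood apart -0.045 for SNHG6. With doxorubicin, library totals gave 0.002 for SNHG7 and 0.009 for SNHG12. The differences of responses turned to -0.031 for SNHG5 and -0.020 for SNHG6 with upper quartile scaling and to -0.005 for SNHG5 without the libraries that stood apart.

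Leaving out 1 library gave ranges that cross 0 for doxorubicin in SNHG5 (-0.26 to 0.18 in siNT, -0.27 to 0.17 in siMLK4 cells), SNHG8 (-0.54 to 0.021 in siNT cells) and SNHG12 (-0.074 to 0.21 in siNT cells). For the knock-down with vehicle they did so for SNHG3 (-0.23 to 0.03), SNHG5 (-0.45 to 0.048), SNHG6 (-0.24 to 0.23) and SNHG8 (-0.42 to 0.28), and with doxorubicin for SNHG6 (-0.041 to 0.21), SNHG7 (-0.14 to 0.025) and SNHG12 (-0.18 to 0.003). For the difference of responses they did so for SNHG5 (-0.22 to 0.28), SNHG6 (-0.12 to 0.34) and SNHG15 (-0.37 to 0.12). Without crossing 0, leaving out 1 library moved other values not called by over 1.5 times. For doxorubicin these were SNHG3 (-0.52 to -0.29), SNHG15 (-0.64 to -0.15) and GAS5 (-0.34 to -0.058) in siNT cells and SNHG8 (-1.13 to -0.47), SNHG12 (0.19 to 0.37) and GAS5 (-0.59 to -0.26) in siMLK4 cells. For the knock-down they were SNHG12 (-0.45 to -0.17), SNHG15 (-0.75 to -0.26) and GAS5 (-0.44 to -0.092) with vehicle and SNHG1 (-0.21 to -0.009), SNHG5 (-0.27 to -0.11) and SNHG8 (-0.79 to -0.34) with doxorubicin. Differences of responses were 0.092 to 0.29 for SNHG1, -0.31 to -0.044 for SNHG3, 0.092 to 0.38 for SNHG12, 0.079 to 0.26 for SNHG16 and -0.36 to -0.014 for GAS5. Depth limits the snoRNA rows, with at most 17 reads, and not the members.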
